A study of Mus musculus with 3 samples.

Results

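The organic ion transporters described here are the genes whose symbols begin with Slc22a or Slco, together with Slc47a1 and Slc47a2, leaving out Slco1a1 and Slc22a30. They number 39 of the 32285 genes counted: 24 Slc22a genes, 13 Slco genes and 2 Slc47a genes. They were measured in 3 droplet single-cell RNA libraries of whole kidneys from male mice at 28 weeks of age. The first library came from db/db mice given a diet with 60% fructose, the second from db/db mice given the fructose-free control diet, and the third from db/m mice given that control diet, in each case for 20 weeks after a start at 8 weeks of age. The db/db mouse carries 2 mutant copies of the leptin receptor gene and becomes obese and diabetic, whereas the db/m mouse carries 1 mutant and 1 normal copy and stays lean. Each group gave 1 library, and how many mice it pools is not given in the sources used here. There is therefore no replicate spread, no difference below was tested, and every 95% interval covers counting error only.

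Transporters of these families move drugs, toxins, hormones, bile acids, urate, carnitine and other charged metabolites through cell membranes. In the proximal tubule, the segment that receives the filtrate first, organic anion transporters of the Slc22 family take anions up from blood in exchange for dicarboxylates, organic cation transporters take cations up, and the Slc47 proteins pass cations on into urine in exchange for protons. The Slco family, also called organic anion transporting polypeptides, carries larger molecules such as prostaglandins, steroid conjugates and thyroid hormones.

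The db/db fructose, db/db control and db/m control libraries held 20383, 26513 and 13524 barcodes with 42028885, 52704335 and 31660184 unique molecular identifiers (UMIs, 1 per captured RNA molecule). After filtering, 16049, 16224 and 9940 cells were kept. The libraries shared 780 barcodes between the db/db libraries, 379 between db/db fructose and db/m control, and 509 between db/db control and db/m control. Cells were clustered without the transporters and named by marker lists, so a name means cells like that type. Proximal tubule-like cells numbered 8525, 6276 and 5855 in the db/db fructose, db/db control and db/m control libraries, with 13689787, 10796044 and 10815420 UMIs. The proximal markers summed to 35270, 25700 and 35790 CPM in them (CPM: a gene's UMIs per 1000000 UMIs summed over the same cells). Their median mitochondrial share was 9.22%, 20.6% and 14.6%, and it moved with the groups. Of the 6 proximal clusters, the largest held 4100 db/db fructose, 1699 db/db control and 312 db/m control cells, and another held 84, 6 and 2274, so clusters and libraries cannot be told apart within the class. Unnamed clusters held 3.46%, 18.6% and 1.76% of cells and are not used.

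Of the 39 transporters, 5 gave 0 UMIs in kept cells (Slco6c1, Slco6d1, Slco1a5, Slc22a16 and Slc22a20), 6 gave 1 to 19 (Slco5a1, Slco1c1, Slco1b2, Slc22a14, Slc22a26 and Slc22a27), and 28 gave at least 20. In proximal tubule-like cells 19 were measured, meaning that their mean over the 3 libraries was at least 5 CPM. Slc22a7 passed this filter through the db/m control library alone, and Slc22a21 through the db/db fructose library alone. The other 20 transporters are described where another cell class carried them or are counted with the low genes.

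In db/db control against db/m control, 9 of the 19 measured transporters (47.4%) were lower by 1.5-fold or more, against 11.4% of the 10039 genes measured in these cells, and 3 (15.8%) were higher, against 8.58%. The lower genes were Slc22a2, Slc22a7, Slc22a12, Slc22a17, Slc22a18, Slc22a22, Slc22a28, Slco1a6 and Slco3a1, and the higher genes were Slc22a23, Slc22a29 and Slco2a1. Slc22a7 is among the lower genes only because its high level in db/m control passed the filter. Its count therefore lends no support, here or in the comparison of db/db fructose with db/m control. The median log2 ratio of the 19 transporters was -0.58, and that of all measured genes was 0.01. In db/db fructose against db/db control, 7 (36.8%) were higher, against 12% of genes, and 0 were lower, against 1.57%. The 7 were Slc22a4, Slc22a17, Slc22a21, Slc22a22, Slc22a28, Slco1a6 and Slco3a1. Slc22a21 is in this number only because its high level in db/db fructose passed the filter, so its count lends no support, here or in the comparison with db/m control. The median log2 ratio of the transporters was 0.44 over the 18 with a ratio, and that of all genes was 0.25, so ratios in this comparison are best read against 0.25. With size factors that centre the gene median near 0, 6 transporters were higher and 2 lower, against 3.85% and 3.67% of genes. Between db/db fructose and db/m control, 5 (26.3%) were higher, against 22.3% of genes, which is near the background, and 4 (21.1%) were lower, against 6.41%. Here the gene median was 0.27, and with size factors 3 were higher and 6 lower, against 8.67% and 13.6% of genes. Each library enters 2 of the 3 comparisons, so the values of all 3 libraries are given side by side below.

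**Figure D1:**
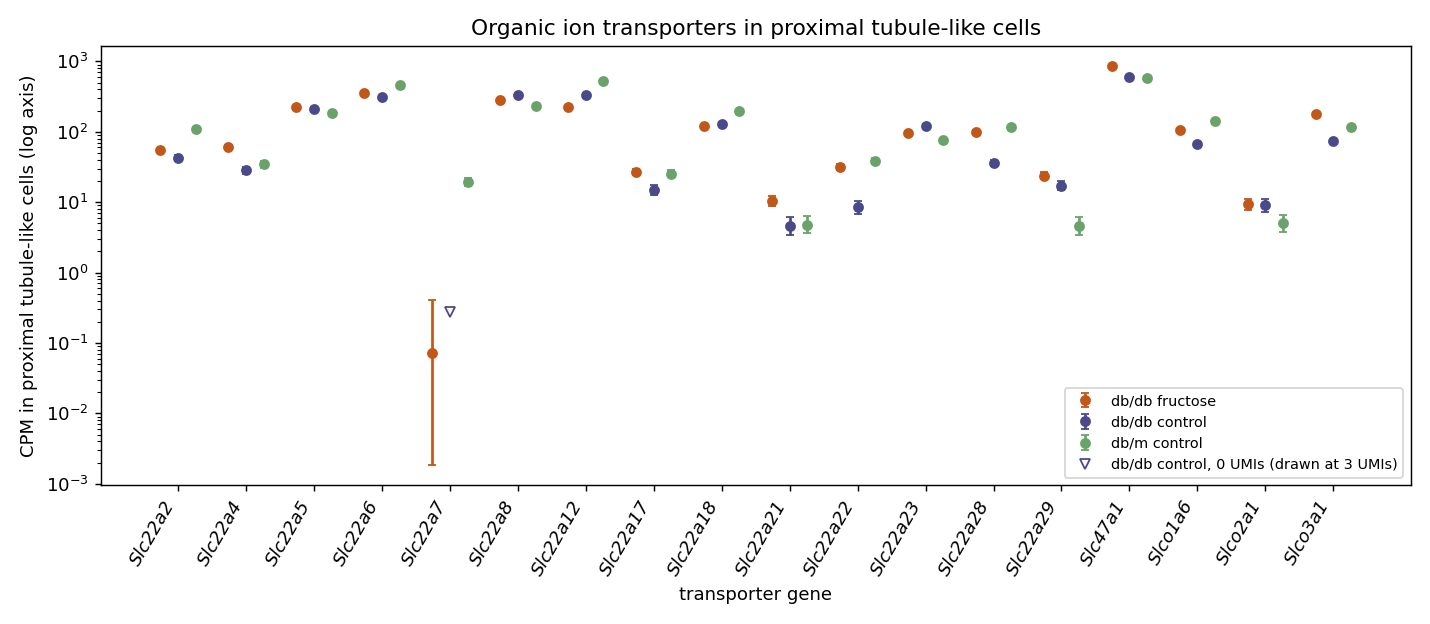
Levels of 18 of the measured transporters in proximal tubule-like cells, in CPM on a log axis, for db/db fructose (orange-brown), db/db control (blue-violet) and db/m control (green). Points are 1 library each, bars are exact Poisson 95% intervals for counting error, and the open triangle marks 0 UMIs, drawn at 3 UMIs. Slc22a7 stands at 19.4 CPM in db/m control and at 1 and 0 UMIs in the db/db libraries.

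The organic anion transporters of the proximal tubule did not move together. Slc22a6, which encodes OAT1, the main basolateral uptake route for para-aminohippurate, stood at 359 CPM in db/db fructose, 315 CPM in db/db control and 469 CPM in db/m control. Its level was highest in db/m control, with a log2 ratio of -0.58 for db/db control over db/m control (95% interval -0.64 to -0.51), just inside the 1.5-fold limit, past which it stood under 6 of 12 alternatives. Slc22a8, which encodes OAT3, a basolateral transporter of broader range, stood at 287, 329 and 233 CPM in the same libraries. Its log2 ratio of db/db control over db/m control was 0.50 (0.43 to 0.57), so these neighbouring genes, Slc22a8 on chromosome 19 at 8591254 to 8611835 and Slc22a6 at 8618039 to 8628299 (mm10, both on the plus strand), differed in opposite directions, each by less than 1.5-fold. With db/db fructose over db/db control Slc22a6 had a log2 ratio of 0.19 (0.13 to 0.25), which became -0.07 with size factors, and Slc22a8 had -0.20 (-0.26 to -0.13).

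Slc22a7, which encodes OAT2, a carrier of organic anions and cyclic nucleotides (chromosome 17, 46432183 to 46438457, minus strand), gave 1 UMI in db/db fructose, 0 UMIs in db/db control and 210 UMIs in db/m control. The floor of 3 UMIs set in place of that 0 equals 0.278 CPM. The db/m control level was 19.4 CPM (16.9 to 22.2). With the floor of 3 UMIs in place of its 0, db/db control was at least 69.9-fold lower than db/m control. The log2 ratio of db/db fructose over db/m control was -8.05 (-13.36 to -5.56). It was taken from the 1 UMI without a floor, so it cannot be set beside the bound for db/db control. Of the db/m control UMIs, 171 lay in late proximal cells. A UMI of Slc22a7 was found in 2.49% of db/m control proximal cells and in 0.0117% of db/db fructose proximal cells, so in db/m control too it was detected in few cells.

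Slc22a12, which encodes URAT1, the apical transporter that reclaims urate from the filtrate, stood at 225 CPM in db/db fructose, 336 CPM in db/db control and 528 CPM in db/m control. The libraries were ordered without overlap of their intervals. Its log2 ratio was -0.65 (-0.71 to -0.59) in db/db control over db/m control, -0.58 (-0.65 to -0.51) for db/db fructose over db/db control and -1.23 (-1.29 to -1.17) for db/db fructose over db/m control. It stood below the gene median in each comparison. Slc22a13, known in human as a transporter of nicotinate and urate, gave 23, 29 and 29 UMIs, too few to separate the libraries.

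Slc22a22, which in mouse encodes a prostaglandin-specific anion transporter, stood at 31.7 CPM in db/db fructose, 8.52 CPM in db/db control and 38.0 CPM in db/m control. The db/db control library was the low one, with a log2 ratio of -2.16 (-2.50 to -1.83) in db/db control over db/m control and of 1.90 (1.57 to 2.24) for db/db fructose over db/db control. The same direction held in early and late proximal cells and under every alternative tried.

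The anion transporter cluster that is expanded in rodents on chromosome 19 holds Slc22a19, Slc22a26, Slc22a27, Slc22a28 and Slc22a29 in a row on the minus strand. Slc22a28 (8062209 to 8131982) stood at 101 CPM in db/db fructose, 36.1 CPM in db/db control and 116 CPM in db/m control. Its neighbour Slc22a29 (8160165 to 8218900) stood at 23.7, 17.1 and 4.62 CPM in the same libraries. In db/db control over db/m control the pair differed in opposite directions, with log2 ratios of -1.68 (-1.85 to -1.51) for Slc22a28 and 1.89 (1.43 to 2.37) for Slc22a29. In db/db fructose over db/db control Slc22a28 had a ratio of 1.48 (1.32 to 1.64) and Slc22a29 one of 0.47 (0.21 to 0.74). Slc22a19, known in rodents as Oat5, an apical anion transporter, gave 6, 4 and 54 UMIs, and Slc22a26 gave 2, 0 and 12 UMIs, so both were highest in db/m control, below the filter. Slc22a27 gave 2 UMIs in all kept cells. Counts of Slc22a28 carry a limit: of 411 windows of 90 bases in the last 500 bases of its transcript, 115 (28.0%) are also found in Slc22a30, a gene left out here, which stood at 247 CPM in db/db fructose, 72.3 CPM in db/db control and 296 CPM in db/m control. Slc22a29 and Slc22a19 shared no such window with any gene.

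The promoters of this neighbourhood are shown because Slc22a28 and Slc22a29 differed in opposite directions and their promoters are alike. They come from RefSeq on GRCm38.p6 and run 5′ to 3′ on the gene's strand over 250 bases before and 50 bases after the start site. Capitals mark GTTAAT, or ATTAAC where it lies on the opposite strand, the core of the site bound by HNF1 factors, which are known to act on the promoters of Slc22a6 and Slc22a8. The locations are chr19:8131933-8132232 (minus strand) for Slc22a28, chr19:8218851-8219150 (minus strand) for Slc22a29, chr19:8617746-8618045 (plus strand) for Slc22a6 and chr19:8592932-8593231 (plus strand) for Slc22a8.
Slc22a28: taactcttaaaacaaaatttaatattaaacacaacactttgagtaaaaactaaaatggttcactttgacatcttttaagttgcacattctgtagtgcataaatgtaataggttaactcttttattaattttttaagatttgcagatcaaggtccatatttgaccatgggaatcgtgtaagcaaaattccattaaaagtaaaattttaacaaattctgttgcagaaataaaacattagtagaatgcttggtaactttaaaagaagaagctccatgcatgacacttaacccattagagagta
Slc22a29: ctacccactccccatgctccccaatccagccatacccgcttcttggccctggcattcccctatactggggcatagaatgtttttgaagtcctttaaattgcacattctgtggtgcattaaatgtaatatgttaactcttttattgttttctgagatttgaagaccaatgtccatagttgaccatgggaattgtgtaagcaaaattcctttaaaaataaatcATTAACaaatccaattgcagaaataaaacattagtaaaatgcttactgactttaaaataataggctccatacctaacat
Slc22a6: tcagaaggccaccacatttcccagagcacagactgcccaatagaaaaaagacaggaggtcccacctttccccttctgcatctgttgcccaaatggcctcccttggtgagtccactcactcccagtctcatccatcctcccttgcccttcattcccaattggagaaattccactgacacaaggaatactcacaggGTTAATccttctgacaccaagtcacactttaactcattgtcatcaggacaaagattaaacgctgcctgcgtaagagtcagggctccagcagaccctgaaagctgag
Slc22a8: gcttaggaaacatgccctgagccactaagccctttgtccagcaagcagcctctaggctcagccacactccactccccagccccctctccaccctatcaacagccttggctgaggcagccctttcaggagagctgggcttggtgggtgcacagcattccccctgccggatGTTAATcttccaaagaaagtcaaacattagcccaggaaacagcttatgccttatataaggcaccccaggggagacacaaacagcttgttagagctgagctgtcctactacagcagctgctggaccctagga
The first pair was 68.0% identical over 331 aligned columns, the highest of the 21 pairs among 7 Slc22a promoters of chromosome 19, and the next pair, Slc22a19 and Slc22a28, was 63.5% identical. Slc22a29, Slc22a6 and Slc22a8 each held 1 HNF1 core, with its first base 29, 56 and 81 bases before the start site, and these letters were not in the Slc22a28 window. The HNF1 core was in 7.1% of the 32851 promoters of the table and in 4 of the 38 promoters found for 33 of the transporters. The other motifs searched on both strands were TTCNNNGAA, the STAT palindrome, in 8.3% of all promoters and 8 of the 38, TGTTCT, the core of the androgen and glucocorticoid receptor site, in 19% and 8 of the 38, and the nuclear receptor direct repeat with a spacer of 1 base, in 0.0396% and 0 of the 38. None of the 14 measured transporters with a promoter held the STAT palindrome, and 2 held the steroid receptor core.

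RNA of the cation uptake transporter gene Slc22a2 was lower in both db/db libraries. Slc22a2 (chromosome 17, 12584132 to 12628488) encodes OCT2, the main basolateral cation uptake carrier of the kidney. It stood at 55.2 CPM in db/db fructose, 42.2 CPM in db/db control and 110.2 CPM in db/m control. Both db/db libraries were below db/m control, with log2 ratios of -1.39 (-1.55 to -1.23) for db/db control and -1.0 (-1.13 to -0.86) for db/db fructose. Slc22a3, which encodes OCT3, gave 16, 15 and 1 UMIs in these cells.

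Slc47a1, which encodes MATE1, the apical exporter that passes cations into urine, stood at 849 CPM in db/db fructose, 596 CPM in db/db control and 589.9 CPM in db/m control. The control-diet libraries overlapped, with a log2 ratio of 0.01 (-0.04 to 0.06), and db/db fructose over db/db control was 0.51 (0.47 to 0.56), or 0.25 with size factors. Slc47a2, its paralog next to it on chromosome 11, gave 2, 13 and 9 UMIs.

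The carnitine and ergothioneine carriers form a cluster on chromosome 11. Slc22a4, which encodes OCTN1, an ergothioneine transporter, stood at 61.7 CPM in db/db fructose, 28.3 CPM in db/db control and 34.4 CPM in db/m control, and so was high in db/db fructose, with a log2 ratio of 1.13 (0.94 to 1.32) over db/db control. Slc22a5, which encodes OCTN2, the transporter that reclaims carnitine, stood at 226, 214 and 185 CPM, and its ratio of db/db fructose over db/db control was 0.08, which became -0.18 with size factors. Slc22a21, known in mouse as Octn3, also a carnitine carrier, stood at 10.4, 4.63 and 4.81 CPM, with a log2 ratio of 1.16 (0.69 to 1.66) for db/db fructose over db/db control. In the last 500 bases of their transcripts 66.2% of windows are common to Slc22a5 and Slc22a21, so counts of this pair are uncertain, and Slc22a4 shared none.

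The remaining Slc22a genes of the proximal cells were less studied members. Slc22a18, which lies in an imprinted region of chromosome 7, stood at 120.2 CPM in db/db fructose, 127 CPM in db/db control and 198 CPM in db/m control, so both db/db libraries were below db/m control. Slc22a23, an orphan member, stood at 94.96, 121 and 75.6 CPM, with a log2 ratio of 0.68 (0.55 to 0.80) in db/db control over db/m control. Slc22a17, which encodes a receptor for lipocalin-2, stood at 27.0, 15.01 and 25.5 CPM and was low in db/db control. Slc22a17 and Slc22a23 were also found in distal cells, and the markers of the connecting tubule and principal cells, all 14 above 0, summed to 925.9, 1170 and 408.8 CPM within the proximal cells of db/db fructose, db/db control and db/m control. Those of the distal convoluted tubule, all 11 above 0, summed to 1488, 1960 and 955.1 CPM. The part of such RNA in the values of Slc22a17 and Slc22a23 was not tested.

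Among the Slco genes, Slco1a6, a rodent kidney member, stood at 106 CPM in db/db fructose, 66.7 CPM in db/db control and 144.5 CPM in db/m control. Its log2 ratio was -1.12 (-1.25 to -0.99) in db/db control over db/m control and 0.66 (0.53 to 0.80) for db/db fructose over db/db control, the last of which was 0.41 with size factors. Slco3a1, a carrier of prostaglandins and thyroxine, stood at 178, 73.3 and 116 CPM. It was high in db/db fructose and low in db/db control, with a log2 ratio of 1.28 (1.16 to 1.39) between them. This direction was not limited to proximal cells. The same ratio was 0.76 (0.47 to 1.05) in connecting tubule and principal-like cells, where Slco3a1 stood at 105.1, 62.0 and 79.5 CPM. In endothelium-like cells, at 83.0, 67.3 and 67.7 CPM, it was 0.30 (0.01 to 0.60). Lymphocyte-like cells gave -0.59 (-1.81 to 0.61), within counting error of 0. Slco2a1, the prostaglandin uptake transporter, stood at 9.35, 8.99 and 5.09 CPM in proximal cells, where the 14 endothelium markers, none at 0, summed to 150.2, 116.9 and 55.66 CPM in the same libraries, and the part of endothelial RNA in these values was not tested. Slco1a4, a multispecific member, gave 9, 0 and 21 UMIs.

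**Figure D2:**
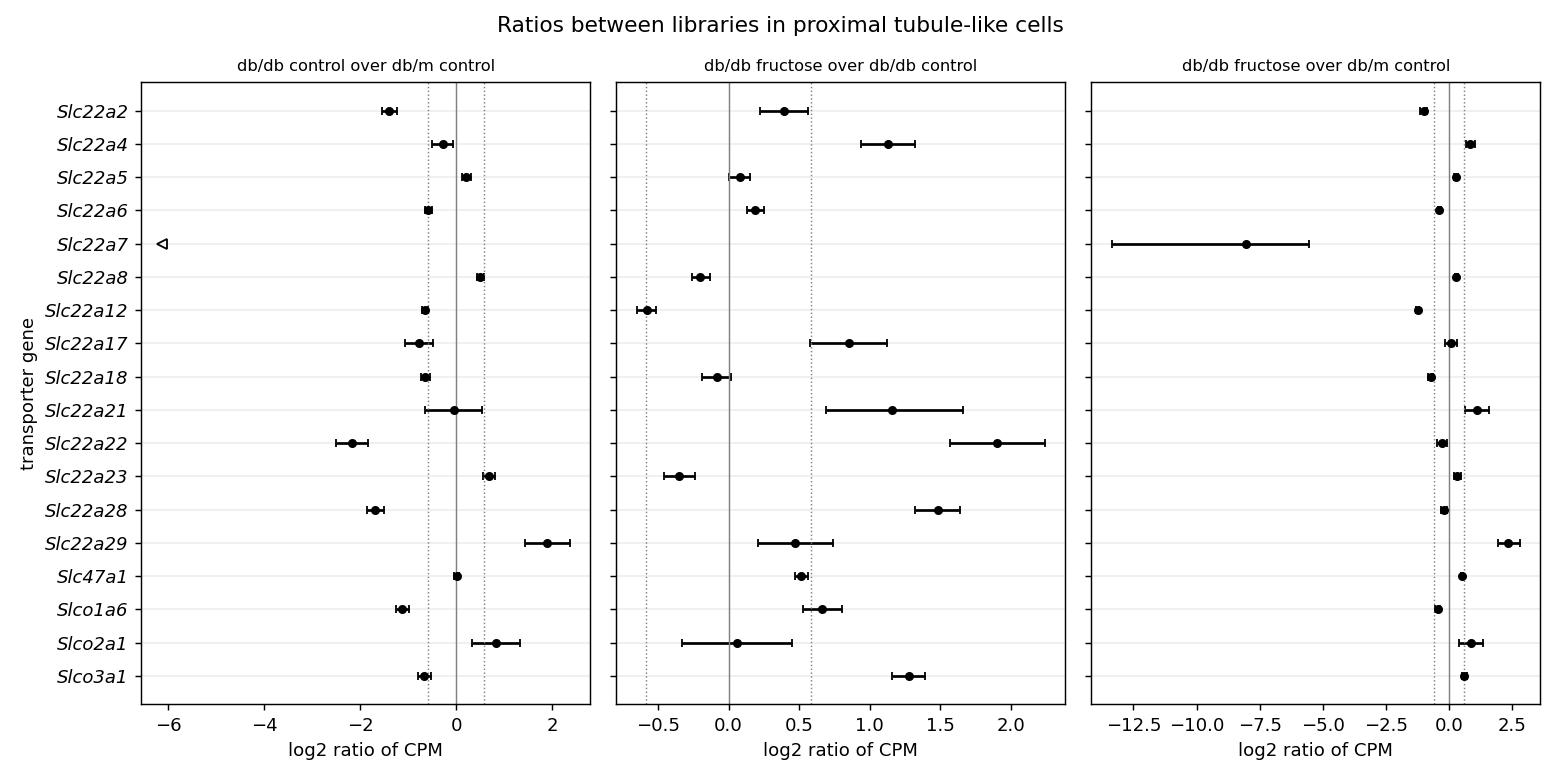
Log2 ratios of CPM in proximal tubule-like cells for 18 of the measured transporters, 1 panel per comparison, each with its own axis. Bars are exact conditional binomial 95% intervals for counting error, dotted lines mark 1.5-fold, and the open triangle is a bound set by a floor of 3 UMIs. The ratio of Slc22a29 lies at 1.89 and that of Slc22a28 at -1.68 in the panel of db/db control over db/m control. Slc22a7 has no point in the panel of db/db fructose over db/db control.

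Cell shares were read against free RNA. At least 1 UMI of Slc22a6 was found in 36.1%, 35.9% and 46.6% of db/db fructose, db/db control and db/m control proximal cells, whose median depths were 1490, 1609.5 and 1524 UMIs. In lymphocyte-like cells, which should lack it, the share was 13.8%, 9.46% and 22.2% at median depths of 1415.5, 1493.5 and 1662 UMIs. Thinned to 1000 UMIs per cell, which left 7339, 6025 and 4760 proximal cells and 60, 63 and 58 lymphocyte-like cells, the shares were 27.8%, 25% and 34.2% in proximal cells and 10.0%, 7.94% and 12.1% in lymphocyte-like cells. The thinned share of Slc22a12 was 19%, 28.0% and 38.7% in proximal cells, against 10.0%, 9.52% and 17.2% in lymphocyte-like cells. Slc22a29 was found in 3.53%, 2.76% and 0.837% of proximal cells and in 0 of 94, 0 of 74 and 0 of 81 lymphocyte-like cells, which allows shares of up to 3.85%, 4.86% and 4.45% (exact 95% limits). Proximal markers stood in lymphocyte-like cells at 36.2%, 29.3% and 33.4% of their proximal level.

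Proximal cells were divided by a score of 11 early and 11 late segment markers, none of which is a transporter described here, into early cells, late cells and those between. Early cells were 46.2% of db/db fructose, 43.6% of db/db control and 24.5% of db/m control proximal cells, late cells 31.7%, 28.3% and 51.3%, and cells between, near the limits of the score, 22.1%, 28.0% and 24.3%. These are ranges of a score and not cell types, and markers of the score differed between libraries themselves, with log2 ratios of db/db control over db/m control of -2.52 for Atp11a and -2.12 for Aadat, so marker levels and segment shares cannot be told apart. Of 18 transporters with a ratio in each library, 6 stood at higher levels in late cells in all 3 libraries beyond counting error (Slc22a2, Slc22a6, Slc22a12, Slc22a22, Slco1a6 and Slco3a1), 2 in early cells (Slc22a23 and Slc22a29), and 10 in neither sense. Slc22a29 was the most early, at 38.6, 30.4 and 11.7 CPM in early cells of db/db fructose, db/db control and db/m control. Its log2 ratio of early over late cells was 2.37 (1.84 to 2.94), 2.74 (1.94 to 3.64) and 2.90 (1.79 to 4.15) in those libraries. Slc22a6 was late, with ratios of -1.58 (-1.68 to -1.48), -1.43 (-1.55 to -1.31) and -1.0 (-1.12 to -0.88). Slc22a8 was late in the db/db libraries at -0.87 (-0.98 to -0.77) and -0.53 (-0.65 to -0.42) and had 0.12 (-0.02 to 0.26) in db/m control, a difference between libraries that was not tested.

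**Figure D3:**
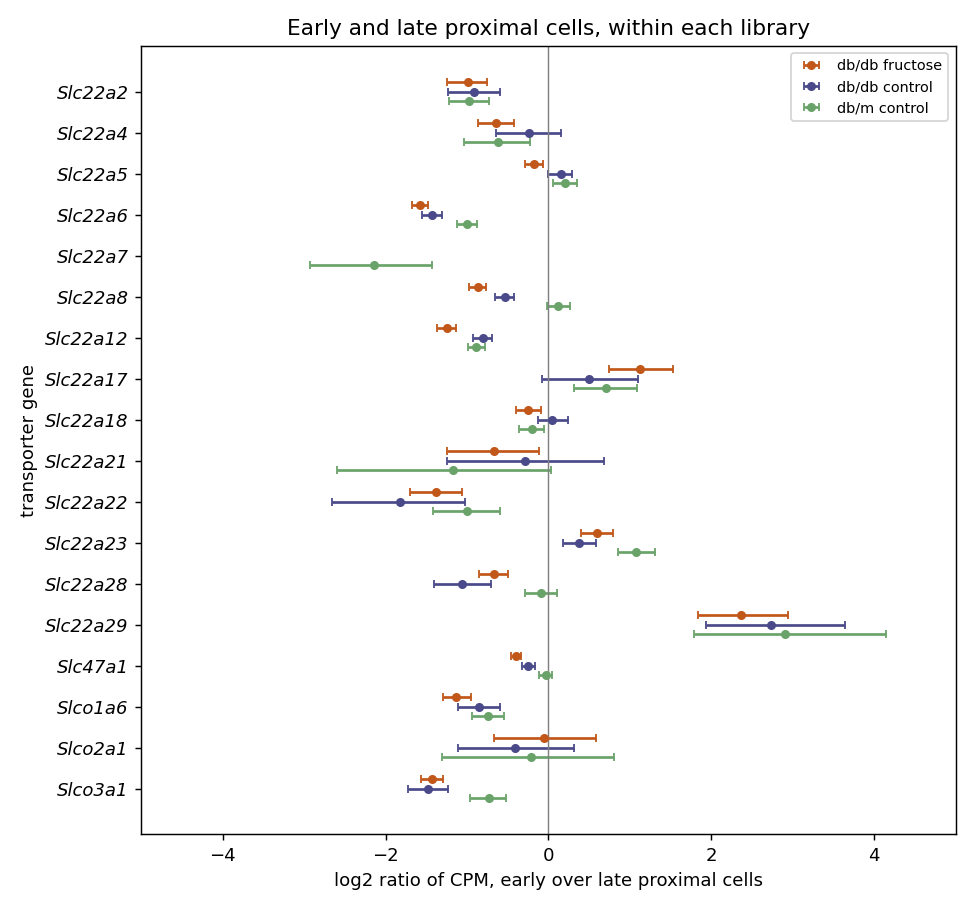
Log2 ratio of CPM, early over late proximal cells, for 18 of the measured transporters within each library. Points are 1 library each and bars are 95% intervals for counting error. Slc22a29 lies to the right in all 3 libraries at 2.37 to 2.90, and Slc22a7 has a point in db/m control only.

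The 9 lower and 3 higher transporters of db/db control against db/m control had the same direction in early and in late cells, for Slc22a7 as a bound against 0 UMIs. In early cells of db/db control against db/m control, 3 of 18 measured transporters were higher and 7 lower, against 8.56% and 12.5% of genes. In late cells the numbers were again 3 and 7 of 18, against 10.7% and 12.9%. For db/db fructose against db/db control, 6 were higher and 1 lower in early cells, against 13.5% and 1.81%, and 7 and 0 in late cells, against 18.3% and 2.47%. For db/db fructose against db/m control, 4 were higher and 3 lower in early cells, against 19.2% and 6.1%, and 6 and 4 in late cells, against 25.4% and 7.32%. Slc22a7 passed the filter in late cells through db/m control alone, and Slc22a21 in early cells through db/db fructose alone. Their calls in those cells lend no support. The log2 ratio of Slc22a29 for db/db control over db/m control was 1.37 (0.80 to 1.98) in early cells, that of Slc22a28 was -2.17 (-2.49 to -1.86) in early and -1.20 (-1.46 to -0.95) in late cells, and that of Slc22a2 was -1.09 (-1.41 to -0.77) and -1.16 (-1.40 to -0.92). Slc22a8 had 0.19 (0.05 to 0.33) in early and 0.84 (0.73 to 0.96) in late cells. Slc22a6 had -0.67 (-0.81 to -0.52) in early and -0.24 (-0.33 to -0.15) in late cells. Slco3a1 had -0.90 (-1.18 to -0.62) in early and -0.16 (-0.34 to 0.02) in late cells, so its call in the whole class did not hold in late cells. Slc22a23 had 0.17 (-0.03 to 0.37) in early and 0.87 (0.64 to 1.10) in late cells, and Slc22a18 had -0.46 (-0.63 to -0.28) and -0.71 (-0.88 to -0.54), so neither was past 1.5-fold in early cells. Slc22a12 was past 1.5-fold in neither segment, at -0.44 (-0.57 to -0.32) and -0.53 (-0.62 to -0.44). The difference between segments was not tested for any gene.

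Outside the proximal tubule, 9 classes had at least 50 cells in each library, and 11 transporters stood there at no less than 2 times the share of their proximal level that proximal markers kept, with at least 20 UMIs, in a total of 29 gene and class pairs. The highest class of a gene is the one with the highest mean over libraries with at least 50 cells of it. Slco2a1 was highest in endothelium-like cells, at 512 CPM in db/db fructose, 376 CPM in db/db control and 359.9 CPM in db/m control. The db/db fructose library was the high one there, by less than 1.5-fold, with a log2 ratio of 0.44 (0.32 to 0.57) over db/db control. The ratio of db/db control over db/m control was 0.06 (-0.10 to 0.23). The median mitochondrial share of endothelium-like cells was 7.93%, 17.9% and 9.53% in the same libraries. No share or median over all genes is given for classes outside the proximal tubule, so ratios there stand without that background. Slco2b1, a carrier of steroid sulfates, was found mainly in mononuclear phagocyte-like cells, at 79.2, 69.8 and 71.0 CPM, from 68, 61 and 23 UMIs, with intervals that overlapped. Among mural cells of the pericyte, mesangial or smooth muscle kind (418, 119 and 104 cells) Slco3a1 stood at 208, 131 and 133 CPM, Slco2a1 stood at 166, 155 and 158 CPM with overlapping intervals, and Slc22a3 gave 8, 12 and 5 UMIs, too few to order the libraries beyond a log2 ratio of -2.19 (-3.69 to -0.78) for db/db fructose over db/db control. Of these cells, 394, 94 and 82 lay in a cluster whose next best name was endothelium. The mean log2 fold of its best markers was 2.69 for the mural list and 2.05 for the endothelium list. The part of endothelial RNA in the mural values of Slco2a1 was not tested.

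Slco4a1, a carrier of thyroid hormone, was highest in thick ascending limb-like cells, at 85.5 CPM in db/db fructose, 68.0 CPM in db/db control and 52.3 CPM in db/m control. The log2 ratio of db/db fructose over db/m control was 0.71 (0.44 to 0.99). It was also found in connecting tubule and principal-like cells at 23.2, 28.1 and 11 CPM, where both db/db libraries were above db/m control, and in distal convoluted tubule-like cells at 37.1, 39.99 and 28.0 CPM. In intercalated-like cells, its second-highest class, it stood at 60.01, 34.8 and 51.55 CPM. The log2 ratio of db/db control over db/m control was -0.57 (-1.14 to 0.04), within counting error of 0. That of db/db fructose over db/db control was 0.79 (0.32 to 1.25). Proximal markers stood in these cells at 41.5%, 55.9% and 19.9% of their proximal level, and the effect of such RNA on these values was not tested. Among endothelium-like cells Slco4a1 gave 24, 58 and 7 UMIs, so db/db control was the high library there. Thick ascending limb-like cells also held Slc22a4, at 33.75, 23.3 and 35.7 CPM, and Slc22a15, at 12.6, 5.82 and 5.30 CPM. These were not the main site of Slc22a15, whose mean over the libraries was 7.90 CPM there and 11.5 CPM in endothelium-like cells. In the latter it stood at 10.96, 12.04 and 11.53 CPM, with overlapping intervals. It also gave 9, 23 and 7 UMIs in intercalated-like cells and 17, 3 and 2 UMIs in mural cells. Slc22a15 gave 6, 5 and 14 UMIs in 83, 49 and 79 thin limb-like cells and 6, 2 and 0 UMIs in 42, 24 and 4 neutrophil-like cells, too few to rank these classes. Slc22a17 was highest in connecting tubule and principal-like cells, at 53.3, 52.0 and 88.0 CPM, and both db/db libraries were below db/m control there, with log2 ratios of -0.76 (-1.08 to -0.44) for db/db control and -0.72 (-1.02 to -0.43) for db/db fructose. Slco4c1, a basolateral carrier of digoxin and thyroid hormone in rat and human kidney, was in those cells too, with 5, 14 and 14 UMIs, against 1, 3 and 9 UMIs in all proximal cells. Slc22a23 stood at 87.8, 84.4 and 62.7 CPM in distal convoluted tubule-like cells. Slco5a1, Slco1c1, Slco1b2, Slc22a14, Slc22a27 and Slc47a2 gave too few UMIs to place.

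**Figure D4:**
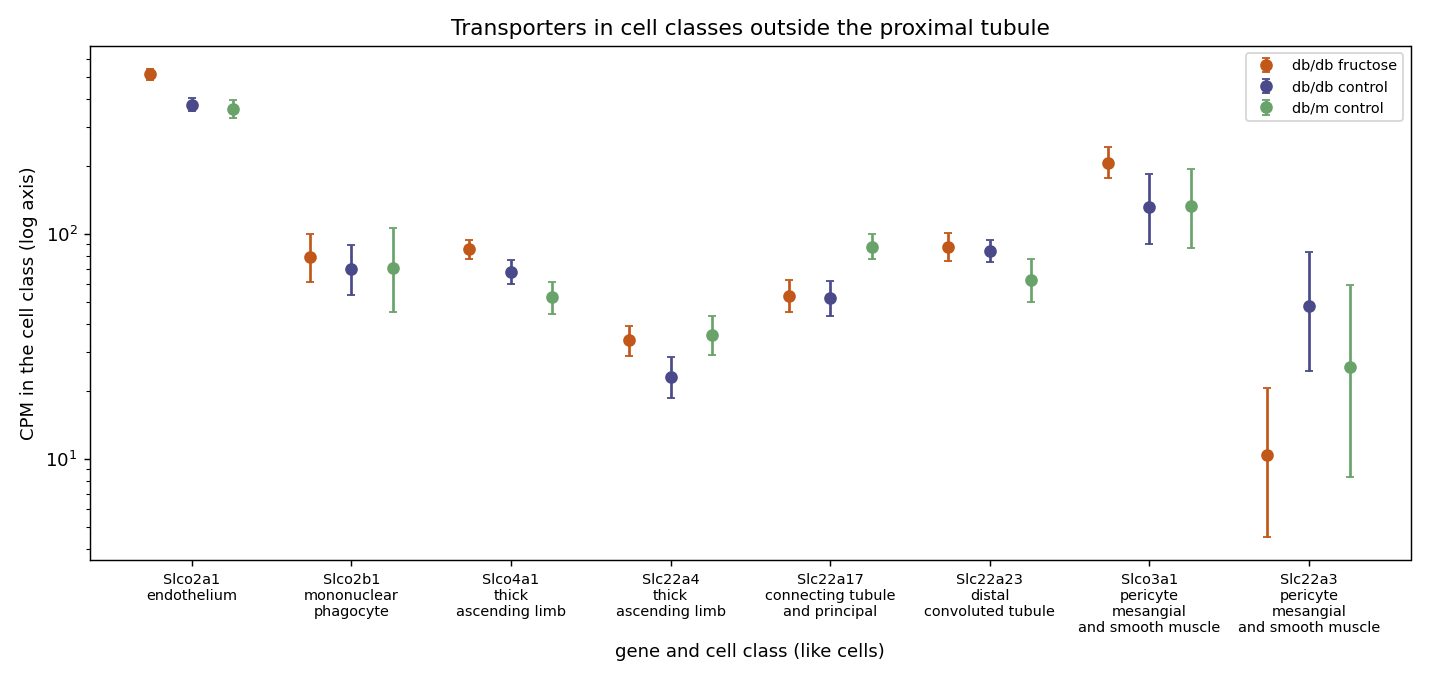
Levels of 8 transporters, each in the cell class outside the proximal tubule named under it, in CPM on a log axis, for db/db fructose (orange-brown), db/db control (blue-violet) and db/m control (green). Points are 1 library each and bars are exact Poisson 95% intervals for counting error. Slco4a1 in thick ascending limb-like cells lies at 85.5, 68.0 and 52.3 CPM, and the intervals of Slco2b1 overlap.

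Among 29 other genes of organic ion transport (regulators, scaffold proteins, urate and bile acid carriers and efflux pumps), 23 were measured in proximal tubule-like cells. In db/db control against db/m control, 6 were higher and 10 lower, in db/db fructose against db/db control 8 were higher and 1 lower, and in db/db fructose against db/m control 6 were higher and 0 lower, to be read against the gene shares given above. The highest ratio of db/db control over db/m control was that of Prlr, the prolactin receptor gene, at 39.9, 23.4 and 1.29 CPM in db/db fructose, db/db control and db/m control. Next was Abcc4, which encodes the apical efflux pump MRP4, at 56.0, 102 and 19.8 CPM. Lowest was Slc51a, which encodes a subunit of the basolateral bile acid and steroid exporter, at 34.9, 9.91 and 41.3 CPM, and then Slc17a3, a phosphate and urate transporter gene, at 311, 167 and 364.5 CPM. Abcc4 was high in both db/db libraries, whereas Slc51a and Slc17a3 were low in db/db control.

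Genes known to be expressed more in male than in female mouse kidney moved with the groups as well. Of 13 such genes, in a list chosen with results of these data known, 3 are also proximal markers and 12 were measured. In db/db control against db/m control 11 were lower and 1 higher, against 11.4% and 8.58% of genes. In db/db fructose against db/db control 1 was lower and 7 higher, against 1.57% and 12%. In db/db fructose against db/m control 10 were lower and 1 higher, against 6.41% and 22.3%. The summed level of the 13 genes was 1589 CPM in db/db fructose, 770.1 CPM in db/db control and 9142 CPM in db/m control. Whether the transporters follow this list was not tested.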

How the data were processed

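Each library came from whole kidneys taken apart by enzymes, after which red cells, debris and dead cells were removed, per the labels' protocols. What the authors deposited are raw UMI counts for each gene in each droplet, and the submitters' processing notes name Cell Ranger 6.0.0 and mm10. Positions are from GENCODE on mm10, and promoters from RefSeq on GRCm38.p6.

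A cell was kept where it held 200 genes or more and no more than 50% mitochondrial UMIs, and the barcodes with the highest Scrublet scores were removed at 0.8% per 1000 barcodes, since the automatic thresholds called 0% in each library. Cells were clustered in scanpy 1.11.5 (2000 variable genes without the transporters, 30 components, 15 neighbours, Leiden resolution 1). Names needed 3 markers in at least 10% of a cluster's cells at 2-fold over the median cluster, a mean log2 fold of 1.2 over the 10 best markers, and a margin of 0.5. Counts were summed per class and library and given as CPM with exact Poisson intervals. Ratios carry exact conditional binomial 95% intervals, and shares of cells are plain proportions. A sum of 0 was set to 3 UMIs. A transporter was counted as higher or lower at 1.5-fold. The ratio and its interval were tried on simulated Poisson counts at equal depth, the model that the interval assumes. Such counts hold no spread between cells, mice or libraries, so the trial checks the computation only. Values are given for transporters at a mean of 5 CPM in proximal cells, or with 20 UMIs in another class where they were highest. UMI counts limit precision, and intervals cover counting error only. The transporters and gene lists were chosen with earlier results of these data known. The values of 1 transporter are not reported here, although the counts over all transporters include it.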

Additional observations from a re-analysis of the deposited data

How the results depend on the processing

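No paired analysis was possible because the labels carry no replicate numbers and each group has 1 library. No ratio past 1.5-fold turned its direction. Ratios nearer to 0 did: with size factors, db/db fructose over db/db control was -0.07 for Slc22a6, -0.18 for Slc22a5 and -0.20 for Slco2a1, against 0.19, 0.08 and 0.06 on the CPM scale, and db/db fructose over db/m control was -0.19 for Slc22a17, against 0.08. Of the calls in db/db control over db/m control, 2 of 3 higher and 6 of 9 lower transporters kept their side of 1.5-fold under each of the 12 alternatives to scaling, cells, clustering and segments, the exceptions being Slc22a23, Slco3a1, Slc22a18 and Slc22a12. In db/db fructose over db/db control 5 of 7 higher transporters did so, Slco1a6 and Slc22a17 being the exceptions. In db/db fructose over db/m control 3 of 5 higher (not Slco3a1 and Slc22a4) and 3 of 4 lower (not Slc22a18) did so. The calls kept include Slc22a7 as lower and Slc22a21 as higher. Each passed the filter through 1 library alone, so these calls lend no support.

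Counts that moved by over 1.5 times were as follows, and the cause was not tested. In db/db control over db/m control, 1 of 15 measured was higher at a minimum mean of 20 CPM, against 5.92% of genes. With no filter, 5 of 33 were higher and 14 lower, against 12.5% and 11.2%. At a fold of 2, 1 of 19 was higher and 5 lower, against 3.09% and 3.06%. In db/db fructose over db/db control, size factors gave 2 of 19 lower, against 3.67% of genes, and no filter gave 2 of 33 lower, against 4.3%. A minimum of 1 CPM, at most 30% mitochondrial UMIs, the mean of each cell's own CPM, early cells alone and, chosen after seeing the data, mitochondrial UMIs left out of the denominator each gave 1 lower, and subtracting free RNA gave 11 higher. In db/db fructose over db/m control, size factors gave 3 of 19 higher and 6 lower, against 8.67% and 13.6% of genes. A minimum of 20 CPM gave 2 of 15 higher, against 18.7%, and no filter gave 11 of 33 lower, against 7.13%. A fold of 2 gave 2 of 19 higher and 2 lower, against 5.41% and 1.69%. With no filter, genes of a few UMIs enter the counts. Depth limits the 20 transporters below 5 CPM, and with 1 library per group no value separates genotype or diet from mouse, digestion or library.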
